A study of Ovis aries with 6 samples.

Results

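The genes for voltage-gated and inward-rectifier ion channels were described in the longissimus dorsi, the long muscle of the back, in sheep of the breeds Qianhua Mutton Merino, called QHMM here, and Small Tail Han, called STH. Members were taken by their symbols: rows of the count table beginning with KCN and a letter (potassium channels), SCN with a number and A or B (sodium channels), CACNA, CACNB or CACNG (calcium channels), or CLCN (chloride channels and transporters). CACNA1S, CACNB1 and CACNG1, the muscle-specific subunits of the calcium channel that triggers contraction, were left out of the set. They serve as a reference and are also counted in a list of partner genes described further below. The rule gave 128 of the 23144 listed genes. The symbols reach beyond voltage-gated and inward-rectifier pores, since they also take in leak channels, calcium- and sodium-activated channels, intracellular chloride transporters and accessory subunits.

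The 6 libraries came from 6 females, 3 QHMM and 3 STH, each aged 1 year and kept under the same conditions, with 1 library per animal. The breeds differ in body form and meat yield, no treatment was given, and breed is the only factor of the design. Poly(A) RNA was read on an Ion Proton sequencer, and the number of uniquely mapped reads on each gene was deposited as raw counts, beside RPKM, which scales the reads to gene length and library total. Whether channel genes differed in RNA level between the breeds was asked of the counts, with STH compared with QHMM throughout. The sources used here do not say how the animals were related, and relatedness and breed cannot be told apart.

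The surface membrane of a muscle fibre is excited when sodium channels open. It is held near its resting voltage by chloride channels of the CLC family and by inward-rectifier potassium channels (Kir), and it is reset by voltage-gated potassium channels (Kv). The pore of each channel is made by alpha subunits, and accessory subunits set how fast it opens, how long it conducts and how much of it reaches the membrane. In the transverse tubules, a voltage-gated calcium channel (Cav) senses the excitation and passes it on to the calcium store.

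Library totals were 10982191 to 14334544 reads on genes, with a median of 13044142. The first principal component, with 44.1% of the variance, separated the breeds. The second held 19.1%, and along it 1 library of each breed, QHMM replicate 2 and STH replicate 3, stood away from the remaining 4. The tissue label was checked against muscle markers. Of 9 such genes, 6 were listed, with summed RPKM of 78994.1 to 126322.9 per library, and 1 of them, TNNT3, was listed at 0. Of 8 slow-fibre genes tested, 4 were lower in STH by the thresholds given below, against 1.83% of all tested genes. All 8 were lower in every STH library than in any QHMM library, against 11.7% of all tested genes. Their summed RPKM was 16586.8 to 23956.5 in QHMM and 7319.2 to 11282.8 in STH, and the median log2 fold change was -1.35. None of the 5 fast-fibre genes tested passed (median -0.25). Of 5 adipocyte genes, 3 were lower in STH by the same thresholds (ADIPOQ, PLIN1 and LEP), against 1.83% of all tested genes. LEP passed the filter for low counts through its QHMM libraries alone. FABP4 and CFD overlapped between the breeds, with log2 fold changes of -0.04 and -0.05. The summed RPKM of the 5 genes was 55.9 to 226 in QHMM and 39.9 to 127 in STH. Among the 8 smooth muscle and pericyte, 4 endothelial, 7 Schwann cell and 5 immune genes tested, edgeR and DESeq2 each called 0, as for the fast-fibre genes, and 0 had an unadjusted p below 0.05. Red cell RNA was represented by ALAS2 alone, at an RPKM of at most 0.403. The part of the slow-fibre and adipocyte values in the channel results was not tested. In whole tissue, fewer cells of a type and less RNA per cell cannot be told apart. With 3 animals per breed, an exact permutation test of a single gene cannot give a p-value below 0.1, so p-values come from a fit across all genes.

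Most channel genes had a mean RPKM under 1. At least 1 read was counted on 106 of the 128 members and on 17668 of the 23144 listed genes. No read was counted on 22 of the 128 in any library, where a count of 0 allows up to 3 reads per library, and 23 more had 1 to 5 reads in the 6 libraries together. Mean RPKM over the 6 libraries reached 10 in 10 genes and 1 in 33 genes, and lay between 0 and 1 in 73. The filter for low counts was passed by 45 members (35.2%, against 54% of all listed genes), and 61 with reads missed it, none of which exceeded 29 reads in a library. The 12 most abundant members held 76.4% to 85.8% of the summed RPKM of the family. Among them were KCNJ11 (mean RPKM of 47.9), SCN4A (47.2), KCNS3 (30.8), KCNJ12 (26.8), CLCN1 (24.3), KCNA7 (18.1), CACNG6 (18), SCN4B (13.1), CACNA2D1 (12.3), KCNJ8 (8.60) and KCNMA1 (8.10). SCN8A, a pore better known from nerve, had a mean RPKM of 0.109.

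**Figure D1:**
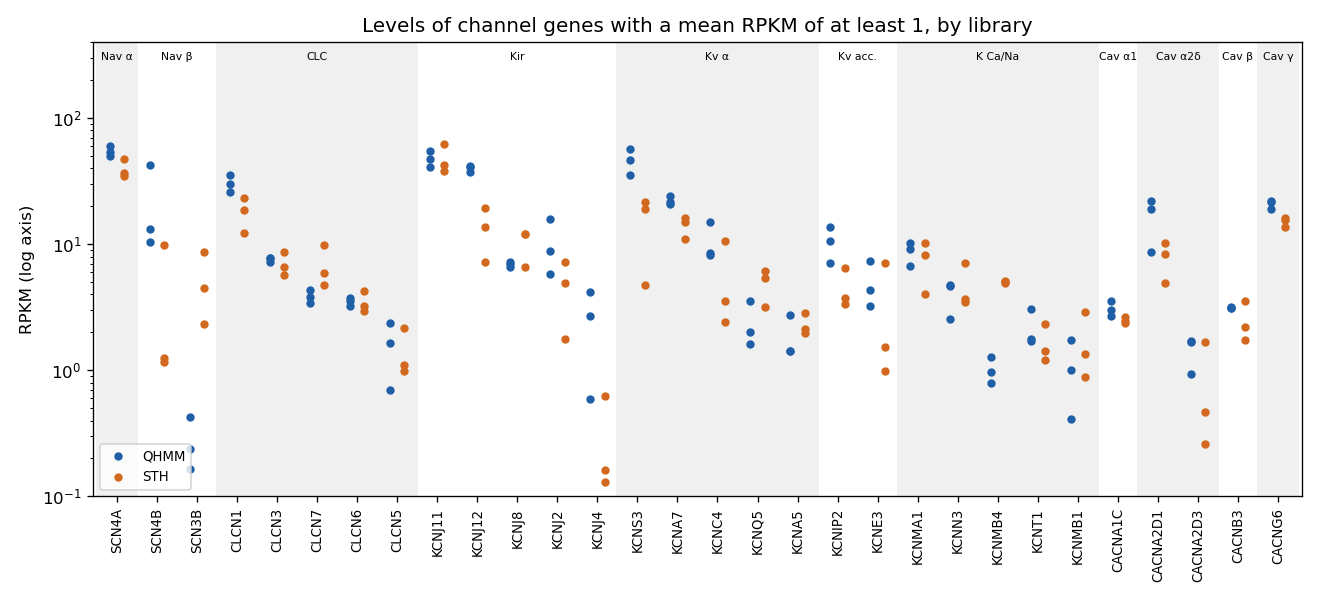
RPKM (log axis) of 30 channel genes with a mean RPKM of at least 1, grouped by role, with 1 point per library, QHMM in blue and STH in orange (Kv acc., accessory subunits of Kv channels; K Ca/Na, potassium channels activated by calcium or sodium). No QHMM point reaches the STH points in SCN3B and KCNMB4.

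The summed RPKM of all 128 members was 575, 587 and 634 in the QHMM libraries and 465, 387 and 469 in the STH libraries. As a share of the reads in a library, members took 0.11% to 0.118% in QHMM and 0.0713% to 0.0922% in STH, and on neither scale did the breeds overlap.

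Between the breeds, 4 of the 45 tested members passed both thresholds (FDR below 0.05, adjusted over 12506 genes, and a fold change above 1.5 in either direction). KCNMB4 and SCN3B were higher in STH, which is 4.44% of the tested members against 1.62% of all tested genes. SCN3B passed the filter through its STH libraries alone, and without such members 1 of 43 was higher (2.33%). KCNJ12 and KCNIP2 were lower in STH, also 4.44%, against 1.83% of all tested genes. At an unadjusted p below 0.05, without regard to the FDR, 4 members were higher in STH (8.89%, background 9.43%) and 12 were lower (26.7%, background 9.72%). All 3 STH libraries lay above all 3 QHMM libraries in 4 members (8.89%, background 13.0%) and below them in 13 (28.9%, background 11.7%), and in the other 28 the breeds overlapped. The log2 fold change was negative in 34 of the 45 (75.6%, against 48.2% of all tested genes), and the median was -0.39, against 0.02 over all tested genes. Without the 2 tested members that had under 10 reads in every library of a breed (SCN3B and KCNH6), the median was -0.41. The slow-fibre markers moved in the same direction as most of these members. No member was called when QHMM replicate 2 and STH replicate 3 were both left out, where 11 of 12728 genes passed in all. In that fit, 16 of 49 members and 1957 of the 12728 genes had an unadjusted p below 0.05. DESeq2 called 10 of the 45 members in place of 4, and 975 of all 12506 tested genes in place of 432. The median of the members was below 0 under every alternative (-0.56 to -0.02).

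**Figure D2:**
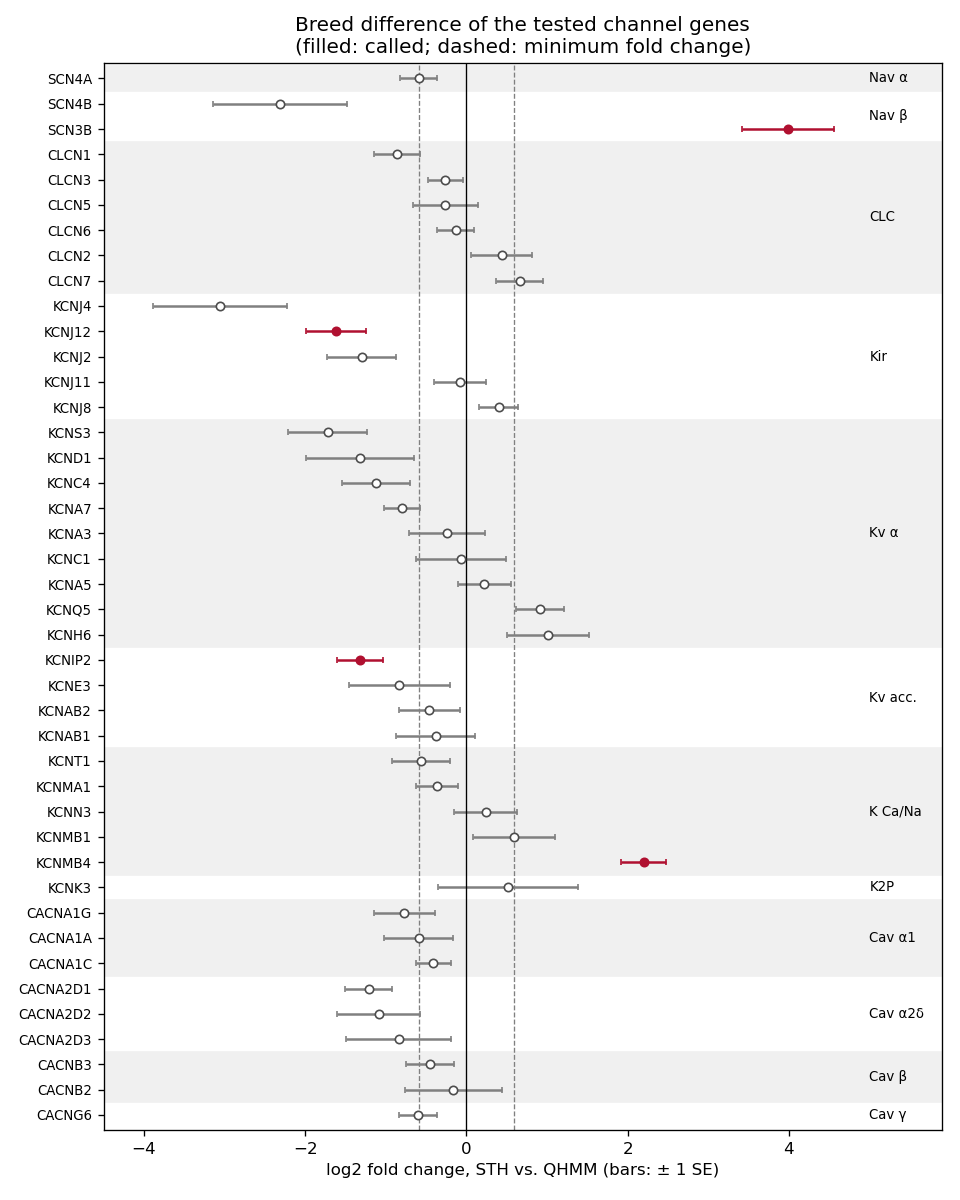
Log2 fold change of STH vs. QHMM for 42 of the 45 tested channel genes, grouped by role, with bars of 1 SE. Filled red points are the 4 called genes, open points those not called, and the dashed lines mark the minimum fold change of 1.5 on the log2 axis. Of the 42 points, 31 lie below 0.

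Sodium channels were made up almost wholly of 1 pore gene in both breeds, and 1 gene of the small beta subunits, SCN3B, was called. Of the 10 alpha subunit genes, all had reads and only SCN4A, the pore of the skeletal muscle sodium channel, passed the filter, with 99.2% to 99.5% of the summed alpha subunit RPKM in QHMM and 98.7% to 99.3% in STH. The normalized read count of SCN4A (scaled by the TMM method to the median library) was 4242, 4571 and 3488 in QHMM, given here and below in the order of the replicate numbers, and 2841, 2405 and 2946 in STH. Every STH library was below every QHMM library, and the log2 fold change of -0.59 ± 0.23 (SE, n = 3 per breed) did not pass (FDR = 0.189).

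Beta subunits are single-span membrane proteins that bind the sodium channel pore and also act in cell adhesion. SCN3B encodes beta 3, which binds the pore without a disulfide bond, and it rose in STH. There were 6, 3 and 2 raw reads in QHMM, against 58, 93 and 31 in STH, which are normalized counts of 5.4, 3.54 and 2.05 against 48.2, 100 and 35. The lowest STH library was thus well above the highest QHMM library. SCN3B passed the filter for low counts through its STH libraries alone. The log2 fold change was 3.99 ± 0.57 (FDR = 0.0078). From the 11 reads in QHMM and the 182 in STH together, the ratio was 16.1, with a 95% exact interval of 8.79 to 32.8 that covers counting error only. SCN3B was called in all 6 fits that left out 1 library and missed the threshold when the pair of libraries that lay apart was left out (log2 fold change of 4.23, FDR = 0.0615).

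SCN4B encodes beta 4, which is joined to the pore by a disulfide bond and is known for its part in resurgent sodium current. It was counted at 114, 172 and 461 normalized reads in QHMM, against 11.6, 11.8 and 130 in STH. The low STH libraries were replicates 1 and 2, while replicate 3 lay within the QHMM range, so that the breeds overlapped in these counts. In RPKM they did not overlap, at 10.4 to 42.6 in QHMM and 1.17 to 9.93 in STH. The log2 fold change of -2.31 ± 0.83 did not pass (FDR = 0.160). Without STH replicate 3 it was -4.39 and passed (FDR = 0.0158), and with QHMM replicate 2 left out as well it was -4.62 (FDR = 0.0638). Without QHMM replicate 3 it was -1.50 (FDR = 0.424), and the other 4 fits that left out 1 library gave -2.68 to -1.83 and did not pass. Within each library, the RPKM ratio of SCN3B to SCN4B was 0.0413, 0.018 and 0.00388 in QHMM and 3.63, 7.4 and 0.236 in STH. In STH replicates 1 and 2 there was more SCN3B than SCN4B, and in the other 4 libraries there was less. SCN2B, a further beta subunit gene, had at most 15 reads in a library and was not tested.

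**Figure D3:**
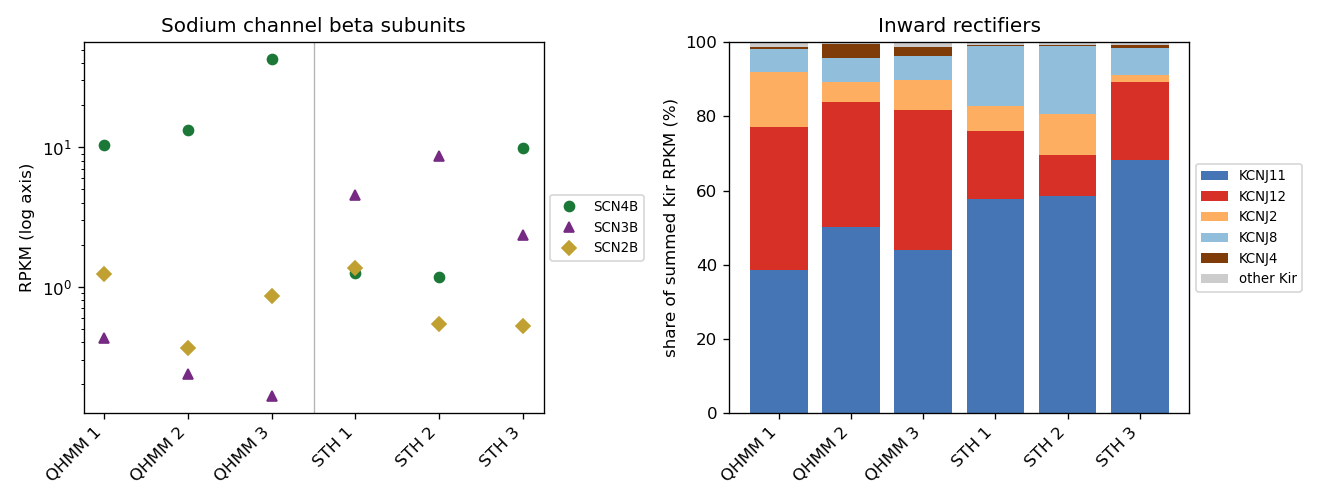
Left, RPKM (log axis) of 3 sodium channel beta subunit genes in each library, where SCN3B is below SCN4B in all QHMM libraries and above it in STH replicates 1 and 2. Right, share (%) of each gene in the summed RPKM of the 14 Kir genes in each library, where KCNJ12 (red) holds 33.9% to 38.8% in QHMM and 11.1% to 21.2% in STH.

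Chloride channel RNA was led by the muscle channel gene, which was lower in all STH libraries. Of 6 tested CLC genes, edgeR called 0 and DESeq2 1 (CLCN1), and 2 had an unadjusted p below 0.05. Over all 12506 tested genes these counts were 432, 975 and 2395. CLCN1 encodes the channel that carries most of the resting chloride conductance of skeletal muscle and whose loss causes myotonia. In QHMM its normalized counts were 1059.6, 1461 and 1416, and in STH 802, 458 and 903. The breeds did not overlap, and the log2 fold change was -0.86 ± 0.28 (FDR = 0.119). CLCN1 made up 63.7% ± 4.72 (SD, n = 3) of the RPKM of the 7 CLC genes in QHMM and 47.8% ± 9.92 in STH. The intracellular transporters CLCN3, CLCN5 and CLCN6, which exchange chloride for protons in endosomes and lysosomes, overlapped between the breeds, with mean RPKM of 7.62, 1.57 and 3.50 in QHMM and 7, 1.42 and 3.48 in STH. CLCN7, the lysosomal member, had normalized counts of 112, 151 and 98.2 in QHMM, against 145, 261 and 165 in STH. STH replicate 1 was below the highest QHMM library in these counts. In RPKM the breeds did not overlap, at 3.45 to 4.38 in QHMM and 4.79 to 9.8 in STH. The log2 fold change was 0.66 ± 0.29 (FDR = 0.253). CLCN2 passed the filter at an RPKM of 0.440 to 0.855. A row under the symbol CLC4 is not matched by the rule, and the counts and shares above leave it out. Whether it is a CLC gene under another symbol is not given in the sources used here. Its mean RPKM was 15.6 in QHMM and 6.34 in STH, without overlap. The log2 fold change of -1.37 passed both thresholds (FDR = 0.0248).

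Among the 14 Kir genes, 11 had reads and 5 were tested. Of the 5, edgeR called 1 (KCNJ12, lower in STH) and DESeq2 3 (KCNJ12, KCNJ2 and KCNJ4, all lower), and 3 had an unadjusted p below 0.05. Over all 12506 tested genes these counts were 432, 975 and 2395. Kir channels pass potassium more easily into the cell than out of it. The Kir2 members KCNJ2, KCNJ12 and KCNJ4 are strong rectifiers that hold the resting voltage, and KCNJ11 and KCNJ8 form the pores of channels closed by ATP. KCNJ12, which encodes Kir2.2, had normalized counts of 1059, 1131 and 1028 in QHMM and 295, 169 and 586 in STH. The 3 QHMM libraries were close together, at a mean of 1073 ± 52.9 (SD), and all were above the highest STH library, whereas the STH libraries were spread over 350 ± 214. The log2 fold change was -1.62 ± 0.37 (FDR = 0.0438). The call was near the threshold and was lost without any library other than STH replicate 3 (FDR of 0.0733 to 0.108), while without STH replicate 3 the log2 fold change was -2.20 (FDR = 0.0109). The log2 fold change stayed between -2.20 and -1.30 in these fits. In human, KCNJ12 has a near-identical copy, KCNJ18, and how reads of any such copy in sheep were counted is not given in the sources used here.

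KCNJ2, which encodes Kir2.1, had normalized counts of 268, 116 and 146 in QHMM and 69.8, 111 and 35 in STH. Its groups did not overlap in these counts, but QHMM replicate 2 and STH replicate 2 nearly met. In RPKM the groups overlapped, with 5.81 in QHMM replicate 2 and 7.21 in STH replicate 2. The log2 fold change was -1.30 ± 0.43 (FDR = 0.127). KCNJ4, which encodes Kir2.3, was at 10.8, 90.8 and 48.1 in QHMM and 2.49, 2.15 and 13.5 in STH. Of the STH libraries only replicate 3, with 12 raw reads, reached 10, so KCNJ4 passed the filter for low counts mainly through QHMM. Because of that library it was not among the 2 members with under 10 reads throughout a breed. QHMM replicate 1 was below STH replicate 3, and the log2 fold change was -3.06 ± 0.83 (FDR = 0.0743). It passed without QHMM replicate 1 (-3.57, FDR = 0.0417) and in no other fit that left out 1 library. Without QHMM replicate 2 it was -2.29 (FDR = 0.236), and without STH replicate 3 it was -4.33 (FDR = 0.0513). The 136 reads in QHMM and 17 in STH gave a ratio of 8.22 (95% exact interval of 4.95 to 14.5, counting error only).

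KCNJ11, which encodes Kir6.2, the ATP-sensitive pore of muscle fibres, was the most abundant Kir gene, with normalized counts of 616, 980 and 698 in QHMM and 541, 522 and 1104 in STH. The breeds overlapped over most of their range, and the log2 fold change of -0.08 ± 0.32 (FDR = 0.919) turned positive when QHMM replicate 2 (0.14) or STH replicate 1 or 2 (0.08 and 0.09) was left out. KCNJ8, which encodes Kir6.1 and is known from vascular smooth muscle, was at 132, 172 and 136 in QHMM, against 204, 221 and 156 in STH. STH replicate 3 lay within the QHMM range, and the log2 fold change was 0.40 ± 0.24 (FDR = 0.408). The smooth muscle and pericyte markers had summed RPKM of 192 to 395 in QHMM and 239 to 401 in STH. Within a library, the RPKM ratio of KCNJ12 to KCNJ11 was 1.01, 0.677 and 0.864 in QHMM and 0.32, 0.19 and 0.311 in STH. KCNJ12 was therefore level with or below KCNJ11 in QHMM and well below it in STH, and its share of all Kir RPKM was 36.8% ± 2.60 in QHMM and 16.9% ± 5.23 in STH. KCNJ11 held 44.1% ± 5.81 and 61.4% ± 5.84.

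**Figure D4:**
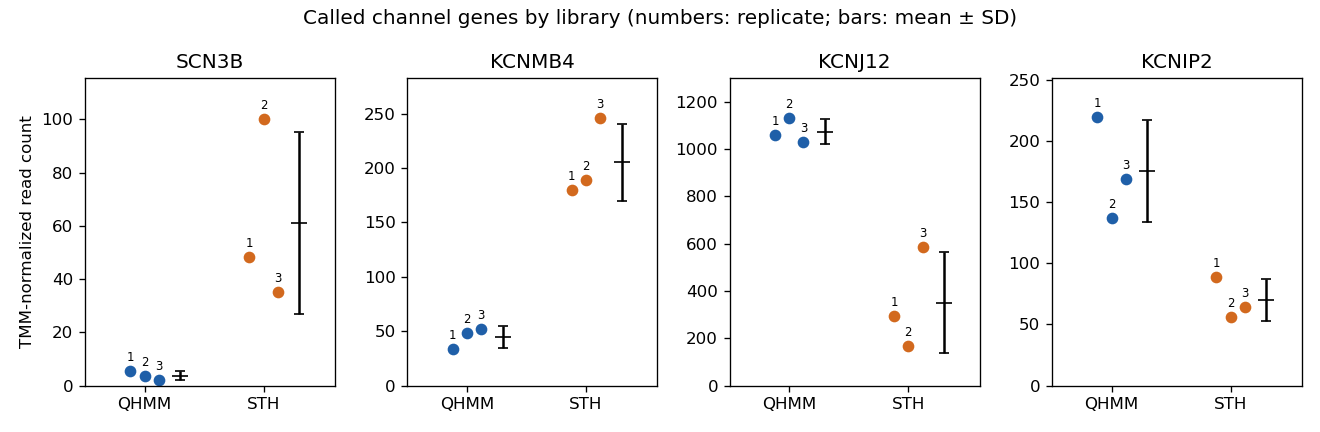
TMM-normalized read counts of the 4 called channel genes in each library, with the replicate number above each point and the mean ± SD of 3 libraries beside it. In SCN3B and KCNMB4 all STH points lie above all QHMM points, and in KCNJ12 and KCNIP2 all lie below.

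Of the Kv alpha subunit genes, edgeR called 0 and DESeq2 2 (KCNA7 and KCNS3), and 4 had an unadjusted p below 0.05. Over all 12506 tested genes these counts were 432, 975 and 2395. Of 37 such genes in all, 28 had reads and 11 were tested. Of the 11, 3 were lower (background 11.7%) and 2 higher (background 13.0%) in STH without overlap. The 3 lower include KCNA3, at 9.43 to 10.8 normalized reads in QHMM and 7.9 to 9.15 in STH. In RPKM its breeds overlapped, at 0.444 to 0.603 and 0.372 to 0.604. The 2 higher include KCNH6, which passed the filter through its STH libraries alone. KCNS3 was the most abundant Kv alpha subunit gene. It encodes Kv9.3, a silent subunit that makes no channel alone and alters those formed by other Kv pores. The QHMM libraries had normalized counts of 998, 1924 and 1309, and the STH libraries 516, 123 and 642. All STH libraries were below all QHMM libraries, STH replicate 2 by far the most, and the log2 fold change was -1.72 ± 0.49 (FDR = 0.0833).

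KCNA7, a Kv1 gene known from skeletal muscle and heart, was at 303, 402 and 283 in QHMM and 191, 192 and 183 in STH. The STH libraries were nearly equal and below all QHMM libraries, and the log2 fold change was -0.80 ± 0.22 (FDR = 0.0786). KCNC4, which encodes the fast-inactivating pore Kv3.4, was at 330, 225 and 180 in QHMM and 200, 72.1 and 63.2 in STH. STH replicate 1 lay within the QHMM range, and the log2 fold change of -1.12 ± 0.42 (FDR = 0.179) became -1.87 and passed without it (FDR = 0.0178), while the other 5 fits that left out 1 library gave -1.30 to -0.84 and did not pass. KCNQ5, a pore of the slow Kv7 group, was at 71.1, 67.2 and 122 in QHMM and 182, 175 and 132 in STH. All STH libraries were above all QHMM libraries in these counts. In RPKM the breeds overlapped, with 3.53 in QHMM replicate 3 and 3.17 in STH replicate 3. The log2 fold change was 0.91 ± 0.30 (FDR = 0.121). Of the other tested genes, KCNA3, KCNA5, KCNC1, KCND1 and KCNH6 had mean RPKM of 0.161 to 1.86 in QHMM and 0.257 to 2.31 in STH.

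Among the 13 accessory genes of Kv channels, 4 were tested and 1 fell in STH. KCNIP2 encodes KChIP2, a calcium-binding protein that joins Kv4 pores and brings them to the membrane. In QHMM the normalized counts were 220, 137 and 169, against 89, 56 and 64.3 in STH. The highest STH library was below the lowest QHMM library, and the log2 fold change was -1.32 ± 0.29 (FDR = 0.0363). The call was lost without any library other than STH replicate 1 (FDR of 0.0502 to 0.108) and in the fits on RPKM (FDR of 0.0945 to 0.187), with log2 fold changes of -1.56 to -1.05 throughout. The Kv4 pore genes KCND1, KCND2 and KCND3 together had only 35, 7 and 20 raw reads in QHMM and 18, 4 and 3 in STH. Per length, KCNIP2 was above these pores in every library, with an RPKM of 3.34 to 13.6 against 0.0763 to 0.866 for KCND1, the most abundant of them. KCNE3, KCNAB1 and KCNAB2 were tested, and the breeds overlapped in each, at a mean RPKM of 5.01, 0.909 and 0.972 in QHMM and 3.21, 0.751 and 0.784 in STH.

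Of the 12 genes for potassium channels activated by calcium or sodium, all had reads, 5 were tested and 1 rose in STH. KCNMA1 encodes the pore of the large-conductance BK channel, which opens with voltage and calcium, and KCNMB1 to KCNMB4 encode its beta subunits. KCNMB4, whose beta 4 protein slows the BK channel and is best known from neurons, had normalized counts of 33.3, 48.4 and 52.2 in QHMM and 180, 189 and 246 in STH. Both groups were narrow and far apart, with a log2 fold change of 2.20 ± 0.28 (FDR = 0.00502), which is a 4.6-fold difference. It was called in all 6 fits that left out 1 library (2 to 2.33 on the log2 scale), and with both libraries that lay apart left out it was 2.10 (FDR = 0.0673). The Schwann cell and nerve markers had summed RPKM of 37 to 69.2 in QHMM and 36.8 to 60.3 in STH, and 0 of 7 were called.

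KCNMA1 was at 395, 343 and 438 in QHMM, against 303, 403 and 207 in STH. The breeds overlapped, and the log2 fold change was -0.37 ± 0.26 (FDR = 0.491). The RPKM ratio of KCNMB4 to KCNMA1 was therefore 0.0875, 0.146 and 0.124 in QHMM and 0.616, 0.488 and 1.24 in STH. Only in STH replicate 3, where KCNMA1 was lowest, did the beta subunit exceed the pore. KCNMB1, the smooth muscle beta subunit, overlapped between the breeds at a mean RPKM of 1.05 ± 0.662 in QHMM and 1.71 ± 1.06 in STH. KCNMB4 made up 5.76% ± 1.36 of the RPKM of these 12 genes in QHMM and 23.6% ± 1.99 in STH. KCNN3, the small-conductance channel known to appear in denervated muscle, was at 156, 100 and 155 in QHMM, against an overlapping 104, 107 and 278 in STH. KCNT1, which is opened by sodium, also overlapped, at a mean RPKM of 2.19 and 1.66.

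Leak channels of the K2P family, which pass potassium at any voltage, were at low levels. Of 13 genes, 9 had reads and only KCNK3 was tested. Normalized counts of 17.1, 11.8 and 8.18 in QHMM stood against 3.33, 4.31 and 47.4 in STH, so that STH replicate 3 was the highest of the 6 libraries and the other STH libraries the lowest. The summed RPKM of the family was 1.75 to 2.83 in QHMM and 1.14 to 3.69 in STH.

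Calcium channel members were the relatives of the muscle-specific subunits. Of the 9 tested, edgeR called 0 and DESeq2 1 (CACNA2D1), and 2 had an unadjusted p below 0.05 (CACNA2D1 and CACNG6). Over all 12506 tested genes these counts were 432, 975 and 2395. CACNA2D1 encodes alpha2delta 1, the extracellular subunit of the muscle calcium channel, and came nearest to the threshold of all members not called. QHMM libraries had 846, 461 and 969 normalized reads, and STH libraries 387, 339 and 260. The STH libraries were all lower in these counts, with QHMM replicate 2 closest to them. In RPKM the breeds overlapped, with 8.75 in QHMM replicate 2 and 10.3 in STH replicate 1. The log2 fold change was -1.21 ± 0.29 (FDR = 0.0506). It passed without QHMM replicate 2 (-1.46, FDR = 0.0296) and did not pass in the other 5 fits that left out 1 library, where it was -1.36 to -0.99. CACNG6, the gamma subunit gene related to CACNG1, was at 215, 259 and 187 in QHMM and 131, 146 and 160 in STH. Its breeds did not overlap, and the log2 fold change was -0.60 ± 0.23 (FDR = 0.192). For reference, the log2 fold change was -0.39 (FDR = 0.451) for CACNA1S, the voltage-sensing pore, -0.75 (FDR = 0.0961) for CACNB1 and -0.52 (FDR = 0.270) for CACNG1. The RPKM ratio of CACNG6 to CACNG1 was 0.174 ± 0.00485 in QHMM and 0.170 ± 0.037 in STH, with overlap.

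The cardiac pore CACNA1C was present at 0.0184 to 0.0239 of the RPKM of CACNA1S in QHMM and 0.0197 to 0.0228 in STH. Its normalized counts of 300, 271 and 253 in QHMM and 190, 192 and 238 in STH did not overlap. CACNA1G, a low-voltage pore, and CACNB3, a beta subunit known from other tissues, had lower normalized counts in every STH library, at 24.8 to 31.5 and 80.8 to 99.1 in QHMM against 13.3 to 19.4 and 42 to 79.8 in STH. In RPKM the breeds overlapped in both genes. CACNA1A, CACNA2D2, CACNA2D3 and CACNB2 were tested and overlapped between the breeds.

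Genes that work beside these channels were taken as a list of 46, with CACNA1S, CACNB1 and CACNG1 among them. The list also held sodium pump subunits, ankyrins, junctional and release proteins, calmodulins, sulfonylurea receptors, hyperpolarization-activated channels, chloride cotransporters and others. Of the 46, 44 were listed and 36 tested. By both thresholds, 1 was higher (2.78%, background 1.62%) and 2 were lower (5.56%, background 1.83%) in STH. Without overlap, 2 were higher (5.56%, background 13.0%) and 12 lower (33.3%, background 11.7%), and the median log2 fold change was -0.36. DPP6, which encodes a further partner of Kv4 pores, had 0 reads in every QHMM library and 31, 25 and 15 in STH, at least 7.68-fold higher when QHMM is set to a floor of 3 reads per library. It passed the filter through its STH libraries alone. JPH2, which encodes a protein that ties the transverse tubule to the calcium store, fell by 2.22 on the log2 scale (FDR = 0.0248). SLC12A2, the cotransporter that brings chloride into the cell, fell by 1.64 (FDR = 0.0466). Among the sulfonylurea receptors, the regulatory subunits of Kir6 channels, ABCC9 had a mean RPKM of 10.1 ± 3.73 in QHMM and 9.84 ± 4.15 in STH, and ABCC8 had 0.595 and 0.890.

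In a RefSeq gene table of another assembly, 123 of the 128 symbols were found, and 11 pairs of members were neighbours, among them SCN2B with SCN4B, KCNJ16 with KCNJ2 and KCNIP1 with KCNMB1. The called genes were not among these pairs. KCNJ16 had no read and SCN2B at most 15 in a library, beside the values of KCNJ2 and SCN4B given above. Whether reads were counted by strand is not given in the sources used here, so reads from antisense or overlapping transcripts cannot be told apart from those of the genes themselves.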

How the data were processed

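RNA was taken from longissimus dorsi muscle of 3 QHMM and 3 STH sheep, with 1 library per animal. The authors filtered Ion Proton reads, mapped them to Oar 3.1, kept unique reads and deposited counts per gene without normalization. The deposited RPKM values scale these counts by gene length and library total. The aligner, counting program and annotation are not given in the sources used here. From RPKM, 25 rows with date-like names were left out.

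Counts were tested in R 4.3.3 with edgeR 4.0.16 (TMM, filterByExpr and the quasi-likelihood F test, with no term but breed). Calls needed an FDR (Benjamini-Hochberg over 12506 genes) below 0.05 and a fold change above 1.5, as in the study. EBSeq, the study's program, was not installed. The SE came from the log2 fold change and the F statistic. Alternatives used DESeq2 1.42.0 and limma-trend (limma 3.58.1) with a pseudocount of 1 or 0.1 on log2 RPKM. Scripts were tested on simulated data. Summaries and plots used Python 3.11.15 with pandas 2.3.3, SciPy 1.17.1 and matplotlib 3.10.9.

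Fold changes are given for called members, tested members with an unadjusted p below 0.05 and the 12 members with the highest mean RPKM, with CACNA1S, CACNB1 and CACNG1 as reference partners. Other members are named with levels, and the partner and marker genes named were called or describe a list. CLC4, which is no member, is given beside the CLC genes. The members and lists were chosen with earlier results of these data known. Intervals and floors cover counting error only. Values of some members are not reported here, and the plots leave them out.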

Additional observations from a re-analysis of the deposited data

How the results depend on the processing

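Of 4 called channel genes, 2 were higher and 2 lower in STH. DESeq2 called 10 (8 lower), adding KCNA7, KCNJ2, KCNJ4, KCNS3, CLCN1 and CACNA2D1. It called 975 of 12506 genes in all, against 432. Without a filter on low counts, 8 of 106 were called (6 lower). With at least 10 counts in every library, 1 was higher, since SCN3B was not tested there. Limma-trend on log2(RPKM + 1) and on log2(RPKM + 0.1) each called 1 lower gene, KCNJ12, and on log2(RPKM + 1) without a filter it called 1 in all (1 higher, KCNMB4, and 0 lower). The median of all tested genes was 0.12 and 0.14 in the filtered RPKM fits, against 0.02, and on RPKM 9 members in place of 13 were lower in STH without overlap. Leaving out QHMM replicate 2 and STH replicate 3 together gave 0 calls, 0 higher and 0 lower. An unadjusted p below 0.05 was found there in 16 of 49 members and 1957 of 12728 genes. Leaving out 1 library gave 2 to 5 calls, with 2 higher in all 6 fits and 0 to 3 lower (0 without QHMM replicate 3 or STH replicate 2). The fold change of KCNJ11 ranged from -0.52 to 0.14 and was above 0 in 3 fits (0.14 with QHMM replicate 2 left out, 0.08 and 0.09 with STH replicate 1 or 2 left out). Where no construction is named, the cause was not tested. Over 20 genes, 276 alternative fold changes kept their direction and side of the threshold, 19 lost a call, 18 gained one and 3 changed sign. The 276 include the alternative without a minimum fold change, whose fold changes and FDRs are those of the main fit by construction. For libraries with the same replicate number, the labels give only that number and do not say whether they were processed together. Their deviations correlated at 0.226, -0.038 and -0.13, and those of differently numbered libraries at -0.263 to 0.287. With the replicate number as a block, 7 members were called (5 lower), adding KCNC4, KCNJ4 and SCN4B.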
